A study of Homo sapiens with 112 samples.

Results

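LAPC4 cells that received the androgen receptor antagonist darolutamide at 2 µM together with the synthetic androgen R1881 were compared with LAPC4 cells that received R1881 alone, 22 h after treatment. The comparison held all 5 libraries of the first group and all 10 of the second, chosen by cell line, treatment and time point in the sample labels, that is 15 of the 112 RNA-seq libraries of the series. LAPC4 is a human prostate cancer cell line that responds to androgen. Before treatment the cells spent 2 days without hormone, in 10% charcoal-stripped serum, and then received DMSO (vehicle), 1 nM R1881, or 1 nM R1881 with 500 nM or 2 µM darolutamide, for 8 or 22 h. Beside the 15 libraries, the 7 DMSO and 5 low-dose libraries at 22 h and the 5 high-dose and 10 R1881 libraries at 8 h were used as references. Expression was measured as reads counted per gene. Of 58684 genes in the table, the 18204 with at least 10 reads in at least 4 LAPC4 libraries were tested.

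The androgen receptor is a transcription factor that stays with chaperones in the cytoplasm until it binds a hormone. It then enters the nucleus, binds DNA at androgen response elements together with pioneer factors such as FOXA1, and raises or lowers the transcription of genes nearby. In luminal prostate cells its induced targets include secreted proteases of the kallikrein family, transporters, regulators of its own signalling and enzymes of lipid synthesis. Darolutamide occupies the hormone-binding pocket and keeps the receptor from activating transcription, and the drug is used against prostate cancer.

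The 15 libraries held 15874797 to 23180161 counted reads each, and the 57 LAPC4 libraries 12188455 to 25201678. Counted reads, the slope of expression on GC content and the share of mitochondrial reads did not pass the test between both groups (two-sided exact permutation tests over 15 libraries, adjusted p = 0.707, 0.707 and 0.344 over the 3 measures). Luminal markers were abundant, with at least 3820 reads each of KRT8, KRT18, CDH1, EPCAM and HOXB13 in every one of the 15 libraries, and ERG, which the other cell line of the series expresses through a gene fusion, had 0 reads in all 15. Defining markers of other cells were at or near 0: no library had over 4 reads of TP63 (basal cells), over 5 of PTPRC (leukocytes), over 2 of PECAM1 (endothelium) or over 2 of COL1A2 (fibroblasts), and CHGA (neuroendocrine cells) had 0 reads. Replicate 4 with 2 µM darolutamide stood at the edge of its group, with the steepest GC slope, -7.88 log2 CPM per unit of GC fraction against -6.42 to -3.15 in the other 4 libraries, and with the highest mitochondrial share, 1.98% against 1.65 to 1.77%. The part of these measures in the results was not tested. The labels do not say whether the libraries came from separate cultures, so that p-values measure the spread between libraries. Levels are CPM, the reads of a gene per 1000000 counted reads of its library after scaling by trimmed means (TMM), and were compared within a gene and not between genes.

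With 2 µM darolutamide, 995 genes were lower (5.47% of those tested) and 911 were higher (5.00%) than with R1881 alone, at an adjusted p under 0.05 (edgeR quasi-likelihood test with Benjamini-Hochberg adjustment). Rose and fell are used here of the level against R1881 at the same time point. Most differences were small: the median log2 fold change was -0.26 among the genes that fell and 0.23 among those that rose, against 0.00050 over all tested genes. Past an absolute log2 fold change of 1, 63 genes fell (0.346%) and 22 rose (0.121%). The values of both groups did not overlap for 409 genes that were lower in every darolutamide library (2.25%) and 312 that were higher (1.71%). Among the genes that rose, replicate 4 was the highest of the 5 darolutamide libraries for 481 (52.8%), and without it 688 genes rose and 1044 fell. Among the genes that fell, replicate 5 was the lowest for 370 (37.2%), and without it 987 rose and 894 fell. With upper-quartile scaling the balance also turned, to 1022 genes that rose and 808 that fell. With the libraries' GC slope as a covariate 1625 genes rose and 2030 fell.

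**Figure D1:**
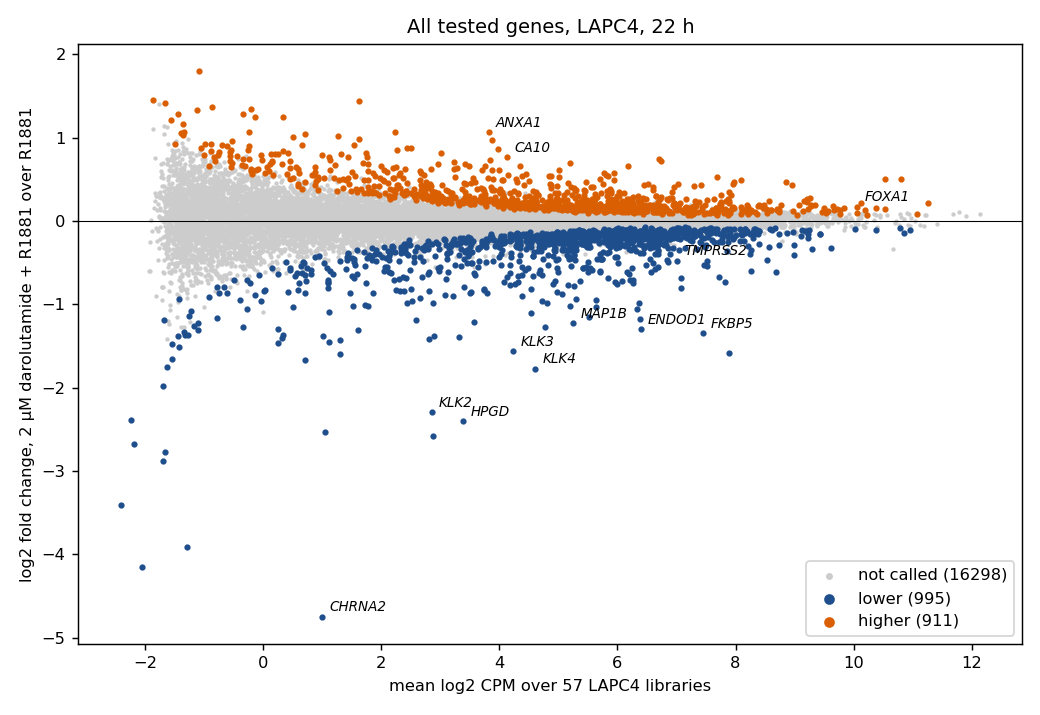
Each point is 1 of 18204 tested genes. The horizontal axis gives the mean log2 CPM over the 57 LAPC4 libraries and the vertical axis the log2 fold change of 2 µM darolutamide plus R1881 over R1881 at 22 h. Blue points are the 995 genes that were lower and orange points the 911 that were higher. The largest falls, CHRNA2 at -4.75 among them, are larger than the largest rise, ADCY8 at 1.80 (both named after their values were seen), and the genes with an absolute fold change above 1 lie mostly at low and middle levels.

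The kallikreins KLK3 and KLK2 are the best known androgen-induced genes of the prostate. KLK3 encodes prostate-specific antigen and lies at chr19:50854915-50860764, and KLK2 encodes a related secreted serine protease at chr19:50861568-50880567 (GRCh38, both on the plus strand). Their promoters are shown because both genes belong to the strongest falls and because they share a match to the androgen response element at nearly the same distance from the start. The sequences are the 250 bases upstream of an annotated RefSeq start on GRCh38.p14, which for KLK2 lies inside the longer gene span given here, at chr19:50854665-50854914 for KLK3 and chr19:50873189-50873438 for KLK2. Capitals mark the match to GAACANNNAGTGCT, which begins 169 bases before the start of KLK3 and 175 before that of KLK2.
KLK3: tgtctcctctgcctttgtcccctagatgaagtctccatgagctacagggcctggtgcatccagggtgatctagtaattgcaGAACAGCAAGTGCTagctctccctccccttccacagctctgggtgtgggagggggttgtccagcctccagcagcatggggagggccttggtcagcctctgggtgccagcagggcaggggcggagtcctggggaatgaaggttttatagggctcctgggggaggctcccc
KLK2: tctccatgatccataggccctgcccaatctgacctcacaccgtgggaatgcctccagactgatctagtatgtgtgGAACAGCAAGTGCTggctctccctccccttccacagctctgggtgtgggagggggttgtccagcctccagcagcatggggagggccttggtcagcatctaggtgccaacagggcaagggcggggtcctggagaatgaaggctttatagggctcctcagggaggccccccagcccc
An unbroken run of 80 bases a little further downstream is also identical in both promoters. The letters of this motif were chosen after both promoters had been read. On either strand, 0.0399% of all 35116 promoters in the RefSeq table hold it, and 5 of 15534 promoters of tested genes (0.0322%). Of 1152 promoters of genes that fell 3 hold it (0.26%), those of KLK3 and KLK2 included, and of 1082 promoters of genes that rose 0. Both genes were shown for their falls and gave the letters, so that this count is no test of the motif. The shorter half-site AGAACA, of which KLK3 carries a copy that overlaps the first 5 capitals, was in 12.4% of all promoters and in 8.23% of those of tested genes (either strand, 10686 genes matched by symbol). It was in 8.59% of the promoters of 708 matched genes that fell and in 9.80% of those of 651 that rose, both near the share of the tested genes. A match describes these letters and shows no binding.

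The gene lists used from here on were chosen with earlier results of these data known, so that their counts are no test of the lists. Over all tested genes, 5.47% fell and 5.00% rose. Of 15 listed androgen-induced secreted proteins and proteases 11 were tested, and 6 of them fell and 2 rose. Their median log2 fold change was -0.51, against 0.00050 over all genes. KLK3 stood at 14.03, 15.6, 15.6, 13.3 and 17.3 CPM in the 5 darolutamide libraries and at 35.8 to 53.2 (median 45.2) CPM in the 10 R1881 libraries. Every darolutamide library lay below every R1881 library, and the level was 2.96 times lower (log2 fold change -1.57 ± 0.091 (SE), adjusted p = 1.25e-20). KLK2 stood at 4.88, 4.72, 7.501, 5.87 and 5.05 CPM against 22.5 to 33.8 (median 27.7) CPM, which was 4.91 times lower without overlap (-2.30 ± 0.13 (SE), adjusted p = 1.83e-21). KLK4, a neighbouring kallikrein protease, fell from a range of 49.7 to 85.2 (median 61.1) CPM to 17.6, 16.1, 22.2, 13.8 and 24.4 CPM (-1.77 ± 0.15 (SE), adjusted p = 1.55e-14). KLK15 and AZGP1 were the other members that fell. The counting rule for reads that match several kallikreins is not known, so that the share of each paralog is uncertain.

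TMPRSS2, a membrane-bound serine protease, fell less. It stood at 123, 117, 121, 113 and 129 CPM against 159 to 177 (median 168) CPM, without overlap but only 1.39 times lower (-0.48 ± 0.031 (SE), adjusted p = 8.12e-19). Prostatic acid phosphatase, encoded by ACPP, moved the other way and stood at 30.0, 31.9, 30.2, 36.8 and 32.3 CPM against 21.1 to 27.3 (median 23.7) CPM, again without overlap (0.44 ± 0.051 (SE), adjusted p = 1.18e-09). MSMB, a secreted protein of seminal plasma named after its values were seen, also rose (0.72 ± 0.18 (SE), adjusted p = 0.00436, lost in 2 of 16 alternative fits) from a level under 1 CPM, and both groups overlapped.

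Of 24 listed androgen-induced membrane proteins and transporters 23 were tested, and 13 fell and 2 rose (median log2 fold change -0.20). C1orf116, which encodes an androgen-regulated protein of little known function, was the gene with the smallest p of this list. It stood at 175, 172, 172, 174 and 169 CPM with darolutamide and at 488 to 532 (median 520.3) CPM with R1881, a gap many times the spread within either group and a level 3.003 times lower (-1.59 ± 0.030 (SE), adjusted p = 2.35e-43). PMEPA1, an inhibitor of TGF-beta signalling, stood at 40.9, 40.1, 40.6, 35.3 and 39.97 CPM against 75.1 to 85.1 (median 80.004) CPM (-1.03 ± 0.035 (SE), adjusted p = 3.05e-31). P2RY1, a receptor for ADP, fell to 6.07, 7.34, 6.98, 6.12 and 6.65 CPM from 16.1 to 18.9 (median 17.3) CPM (-1.39 ± 0.070 (SE), adjusted p = 3.91e-23). All 3 genes were without overlap between the groups. SLC45A3, a prostate-restricted transporter named after its values were seen, was 2.23 times lower (-1.16 ± 0.097 (SE), adjusted p = 2.24e-14), and NCAPD3, a condensin subunit, 1.25 times lower (-0.33 ± 0.033 (SE), adjusted p = 2.35e-11). The metalloreductase STEAP4 rose (0.54 ± 0.067 (SE), adjusted p = 6.81e-09), while its relatives STEAP1 (-0.73 ± 0.057 (SE), adjusted p = 1.49e-15) and STEAP2 (-0.82 ± 0.079 (SE), adjusted p = 2.64e-12) fell, all 3 named after their values were seen.

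Of 29 listed androgen-induced regulators 28 were tested, and 16 fell and none rose (median log2 fold change -0.29). FKBP5, a co-chaperone of steroid receptors at chr6:35573585-35728583, stood at 119, 134, 118, 140.1 and 117 CPM against 300.2 to 336 (median 321) CPM. That was 2.55 times lower, with no overlap (-1.35 ± 0.042 (SE), adjusted p = 1.16e-32). HPGD, the enzyme that inactivates prostaglandins, had the largest fall of the list among the genes named by rule, with 7.08, 7.60, 6.64, 7.43 and 7.05 CPM against 33.0 to 42.4 (median 38.3) CPM (-2.40 ± 0.073 (SE), adjusted p = 2.21e-33). ARHGEF26, an exchange factor for small GTPases, and the receptor IGF1R fell by smaller amounts, to 60.8, 64.2, 62.9, 64.7 and 63.4 CPM from 119.9 to 131 (median 125) CPM (-0.99 ± 0.032 (SE), adjusted p = 2.59e-32) and to 20.8, 19.6, 21.7, 21.1 and 21.5 CPM from 24.3 to 27.0 (median 25.4) CPM (-0.28 ± 0.049 (SE), adjusted p = 1.47e-05). None of these 4 genes overlapped between the groups. SGK1, a kinase of steroid and insulin signalling (-0.76 ± 0.045 (SE), adjusted p = 3.47e-20), and ZBTB16, a zinc-finger repressor (-2.59 ± 0.16 (SE), adjusted p = 5.81e-19), also fell and were named after their values were seen.

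The largest falls among genes above the median expression also held ENDOD1, HOMER2, MAP1B and RAB3B. HOMER2, a scaffold protein, stood at 21.0, 18.9, 22.4, 21.3 and 19.96 CPM against 47.6 to 55.1 (median 50.1) CPM (-1.28 ± 0.042 (SE), adjusted p = 3.96e-32), and RAB3B, a small GTPase of secretory vesicles, at 65.9, 70.8, 65.2, 74.7 and 61.5 CPM against 131 to 168 (median 157) CPM (-1.18 ± 0.065 (SE), adjusted p = 1.88e-21). ENDOD1, which has an endonuclease-like domain (-1.30 ± 0.046 (SE), adjusted p = 2.33e-30), and MAP1B, a microtubule-associated protein (-1.23 ± 0.072 (SE), adjusted p = 2.15e-20), fell by similar amounts. None of the 4 overlapped. The largest fall of all tested genes, named after its values were seen, was that of CHRNA2, a nicotinic acetylcholine receptor subunit, with 0.877, 0.612, 0.526, 0.803 and 1.15 CPM against 16.0 to 23.9 (median 21.5) CPM. The level was 26.9 times lower (-4.75 ± 0.19 (SE), adjusted p = 3.26e-28), and the darolutamide libraries lay within or next to the range of the DMSO libraries, 0.451 to 1.10 (median 0.667) CPM.

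**Figure D2:**
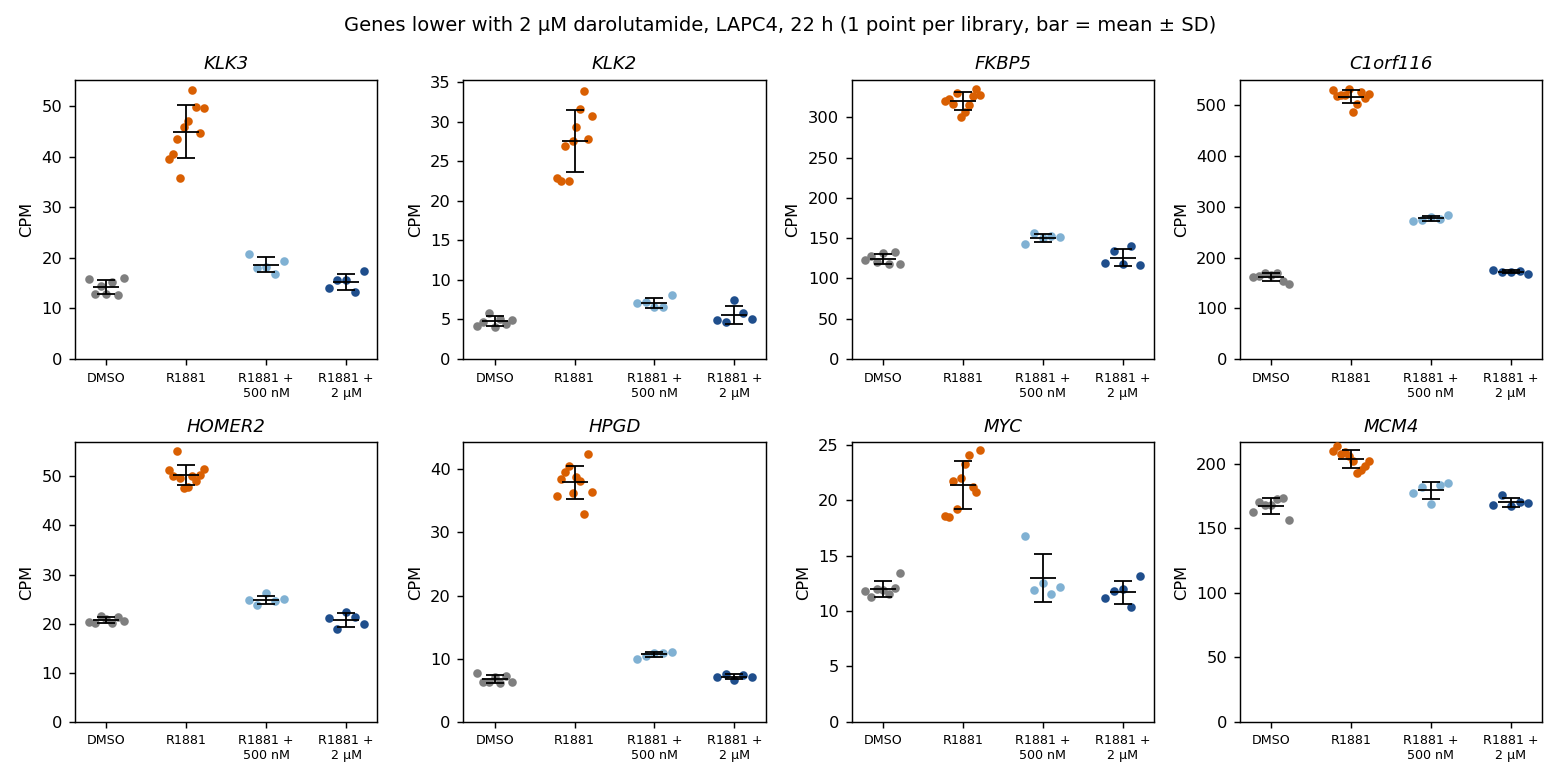
CPM of 8 genes at 22 h, 1 point per library and the mean ± SD per group, for 7 DMSO, 10 R1881, 5 R1881 plus 500 nM and 5 R1881 plus 2 µM darolutamide libraries. In each panel the 2 µM libraries lie below all R1881 libraries and close to the DMSO libraries, and C1orf116 has the widest gap between both doses among these 8 genes.

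Genes listed as repressed by androgen moved both ways. Of 15 listed genes 14 were tested, and 7 rose and 4 fell (median log2 fold change 0.31). PCDH19, a protocadherin of cell adhesion, had the smallest p and stood at 126, 120.4, 116.4, 133 and 120.2 CPM against 68.7 to 79.5 (median 73.0) CPM (0.75 ± 0.043 (SE), adjusted p = 6.91e-21). CA10, a carbonic anhydrase-related protein without enzyme activity, had the largest rise among genes above the median expression, at 24.6, 25.9, 22.3, 26.3 and 22.2 CPM against 12.2 to 15.8 (median 14.8) CPM (0.76 ± 0.060 (SE), adjusted p = 3.42e-15). Both were without overlap. DDC, UGT2B11 and UGT2B28 were among the members that fell. UGT2B28 was at 38.1, 39.9, 37.2, 38.4 and 33.9 CPM against 58.8 to 68.1 (median 64.1) CPM (-0.77 ± 0.055 (SE), adjusted p = 4.80e-17) and UGT2B11 fell by 0.69 on the log2 scale (adjusted p = 5.38e-17), whereas their relatives UGT2B15 (0.61 ± 0.070 (SE), adjusted p = 8.22e-10) and UGT2B17 (0.57 ± 0.091 (SE), adjusted p = 3.07e-06), named after their values were seen, rose. The UGT2B enzymes attach glucuronic acid to androgens, and their near-identical sequences make the share of reads of each uncertain.

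The other 6 of the 8 largest rises above the median expression follow. VCAN, a chondroitin sulfate proteoglycan of the matrix, stood at 112, 138, 123, 152 and 122 CPM against 68.8 to 89.0 (median 79.4) CPM (0.71 ± 0.068 (SE), adjusted p = 1.57e-12), PCDH10, a protocadherin, at 56.4, 59.0, 58.3, 54.4 and 59.7 CPM against 30.6 to 41.6 (median 35.4) CPM (0.70 ± 0.055 (SE), adjusted p = 2.08e-15) and FAT4, a giant cadherin, at 34.8, 40.8, 35.3, 46.0 and 38.9 CPM against 20.8 to 29.5 (median 25.8) CPM (0.61 ± 0.070 (SE), adjusted p = 8.22e-10). The adhesion receptor ADGRF1 (0.58 ± 0.068 (SE), adjusted p = 1.57e-09), the homeobox gene NKX1-2 (0.66 ± 0.065 (SE), adjusted p = 5.25e-12) and FAM46A, a poly(A) polymerase (0.66 ± 0.045 (SE), adjusted p = 1.31e-17), completed the 8 largest. All 8, CA10 and PCDH19 included, were higher in every darolutamide library than in any R1881 library, and replicate 4 was the highest darolutamide library for 7 of them. ANXA1, a phospholipid-binding protein of the glucocorticoid response named after its values were seen, was 2.09 times higher, with 18.2, 18.0, 15.5, 18.9 and 16.4 CPM against 7.11 to 9.10 (median 8.29) CPM (1.06 ± 0.060 (SE), adjusted p = 6.66e-21).

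**Figure D3:**
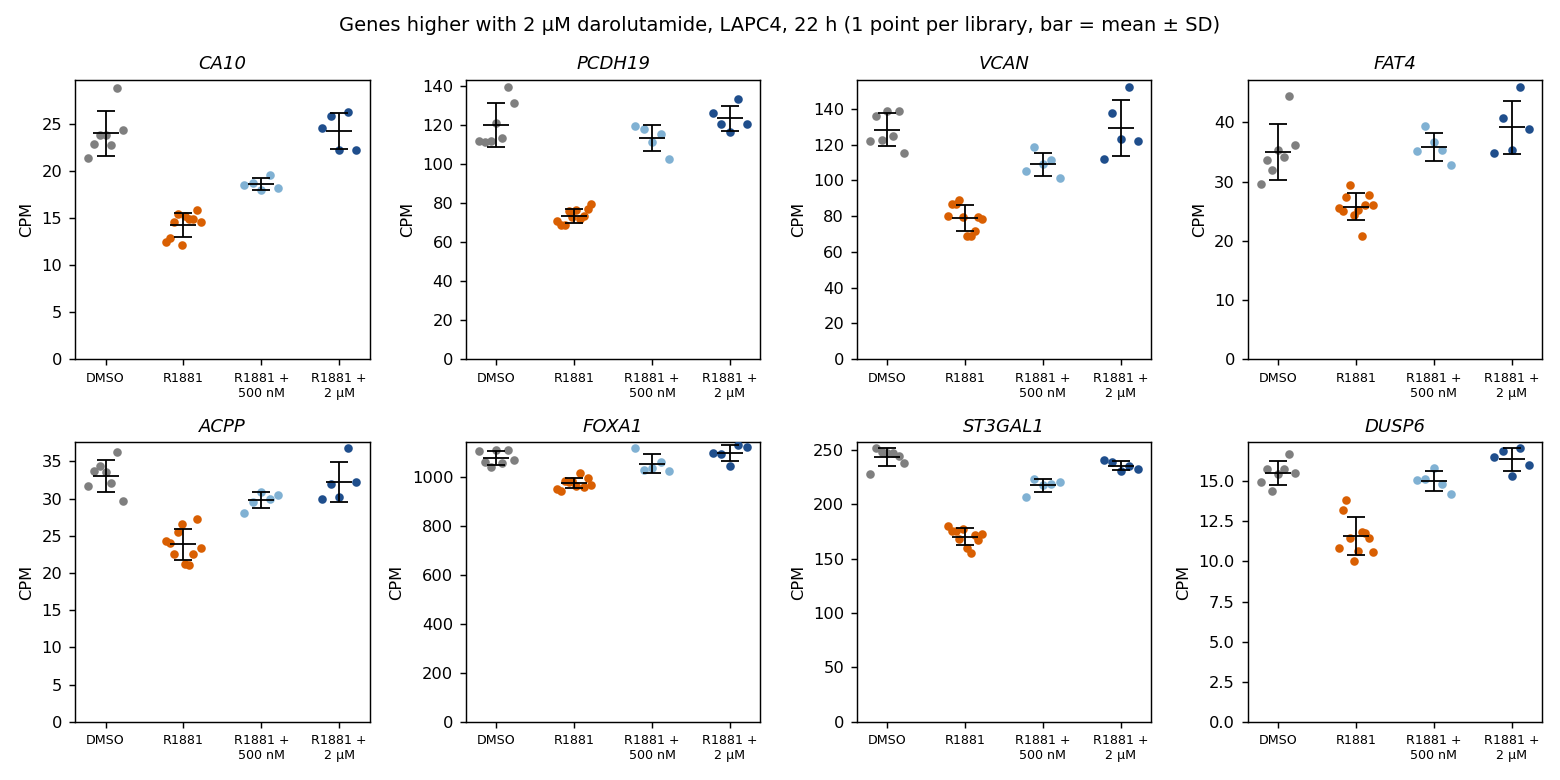
CPM of 8 genes at 22 h, 1 point per library and the mean ± SD per group, in the same 4 groups as above. The 2 µM libraries lie above all R1881 libraries in each panel, and the mean of the R1881 libraries is the lowest of the 4 groups.

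FOXA1, the pioneer factor of the receptor, stood at 1098, 1091, 1044, 1129 and 1122 CPM against 943 to 1015 (median 973) CPM, 1.13 times higher and without overlap (0.17 ± 0.022 (SE), adjusted p = 1.01e-08). Of 19 listed chaperones and coregulators, all tested, FOXA1 rose and HSP90AB1 fell (-0.087 ± 0.028 (SE), adjusted p = 0.0331, a call lost in 8 of 16 alternative fits), and the median was -0.031. These counts are near the shares of all tested genes, of which 5.47% fell and 5.00% rose. MED1, a Mediator subunit, did not pass the test (-0.12 ± 0.054 (SE), adjusted p = 0.173) but did in 5 of 16 alternative fits, and ACPT, a testicular acid phosphatase, and ERG had too few reads to be tested. Of the other steroid receptors 3 of 6 were tested and only NR3C2, the mineralocorticoid receptor, rose (0.21 ± 0.057 (SE), adjusted p = 0.00821, lost in 3 of 16 alternative fits), whereas the values for the glucocorticoid receptor NR3C1 were -0.12 ± 0.14 (SE), adjusted p = 0.741. Of 8 aryl hydrocarbon receptor targets 7 were tested, and at 22 h 1, TIPARP, rose (0.20 ± 0.049 (SE), adjusted p = 0.00249, lost in 2 of 16 alternative fits). Their values at 8 h follow below.

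Lipid genes fell in part. Of 26 genes of cholesterol synthesis and uptake, all tested, 6 fell and none rose, and 24 had a fold change below 0 (median -0.099). HMGCS1, an early enzyme of the pathway, was 1.11 times lower with overlapping groups (-0.16 ± 0.038 (SE), adjusted p = 0.00247). The number that fell was 16 with the GC slope as a covariate and 3 with upper-quartile scaling. Of 20 genes of fatty acid synthesis, elongation and activation 16 were tested, and 4 fell and 2 rose (median -0.055). The elongase ELOVL7 stood at 61.4, 69.2, 58.6, 67.4 and 60.3 CPM against 94.0 to 115 (median 104) CPM (-0.70 ± 0.053 (SE), adjusted p = 3.45e-16) and ELOVL5 at 364, 388, 354, 407 and 341 CPM against 433 to 492 (median 454) CPM (-0.31 ± 0.038 (SE), adjusted p = 4.67e-09), both without overlap, and ACSL1, a long-chain acyl-CoA synthetase, rose (0.19 ± 0.023 (SE), adjusted p = 3.32e-09). Of 21 fatty acid oxidation genes, all tested, 2 fell and 3 rose (median 0.041).

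Many genes of DNA replication fell by small amounts, and few genes of mitosis did. Of 40 listed replication genes, all tested, 20 fell and none rose, 39 had a fold change below 0, and the median was -0.16. MCM4, a subunit of the replicative helicase, stood at 168, 176, 167, 171 and 169.6 CPM against 193 to 214 (median 204) CPM (-0.26 ± 0.028 (SE), adjusted p = 1.97e-10). RFC3, of the clamp loader, stood at 50.1, 52.5, 50.6, 52.1 and 49.3 CPM against 55.9 to 68.6 (median 61.6) CPM (-0.29 ± 0.038 (SE), adjusted p = 3.47e-08), and MCM3 at 137, 129, 133, 130.1 and 125 CPM against 143 to 159 (median 151) CPM (-0.21 ± 0.028 (SE), adjusted p = 5.60e-08). All 3 were without overlap, although each level was no more than 1.22 times lower. E2F1, a transcription factor that drives these genes, named after its values were seen, fell with overlapping groups (-0.32 ± 0.094 (SE), adjusted p = 0.0158, lost in 3 of 16 alternative fits). The number that fell was 13 with control replicates 6 and above and 30 with the GC slope as a covariate. Of 36 genes of G2 and mitosis, all tested, only the spindle checkpoint gene MAD2L1 fell (-0.16 ± 0.042 (SE), adjusted p = 0.00707), none rose, and the median was -0.012. Whether the 2 lists differ was not tested. Among CDK inhibitors and D-type cyclins, 9 of 10 tested, CCND1 stood at 185, 177, 179, 172 and 187 CPM against 199 to 229 (median 223) CPM (-0.29 ± 0.032 (SE), adjusted p = 3.53e-10), and CDKN2B, an inhibitor of their kinases, rose (0.40 ± 0.12 (SE), adjusted p = 0.0204, lost in 6 of 16 alternative fits).

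**Figure D4:**
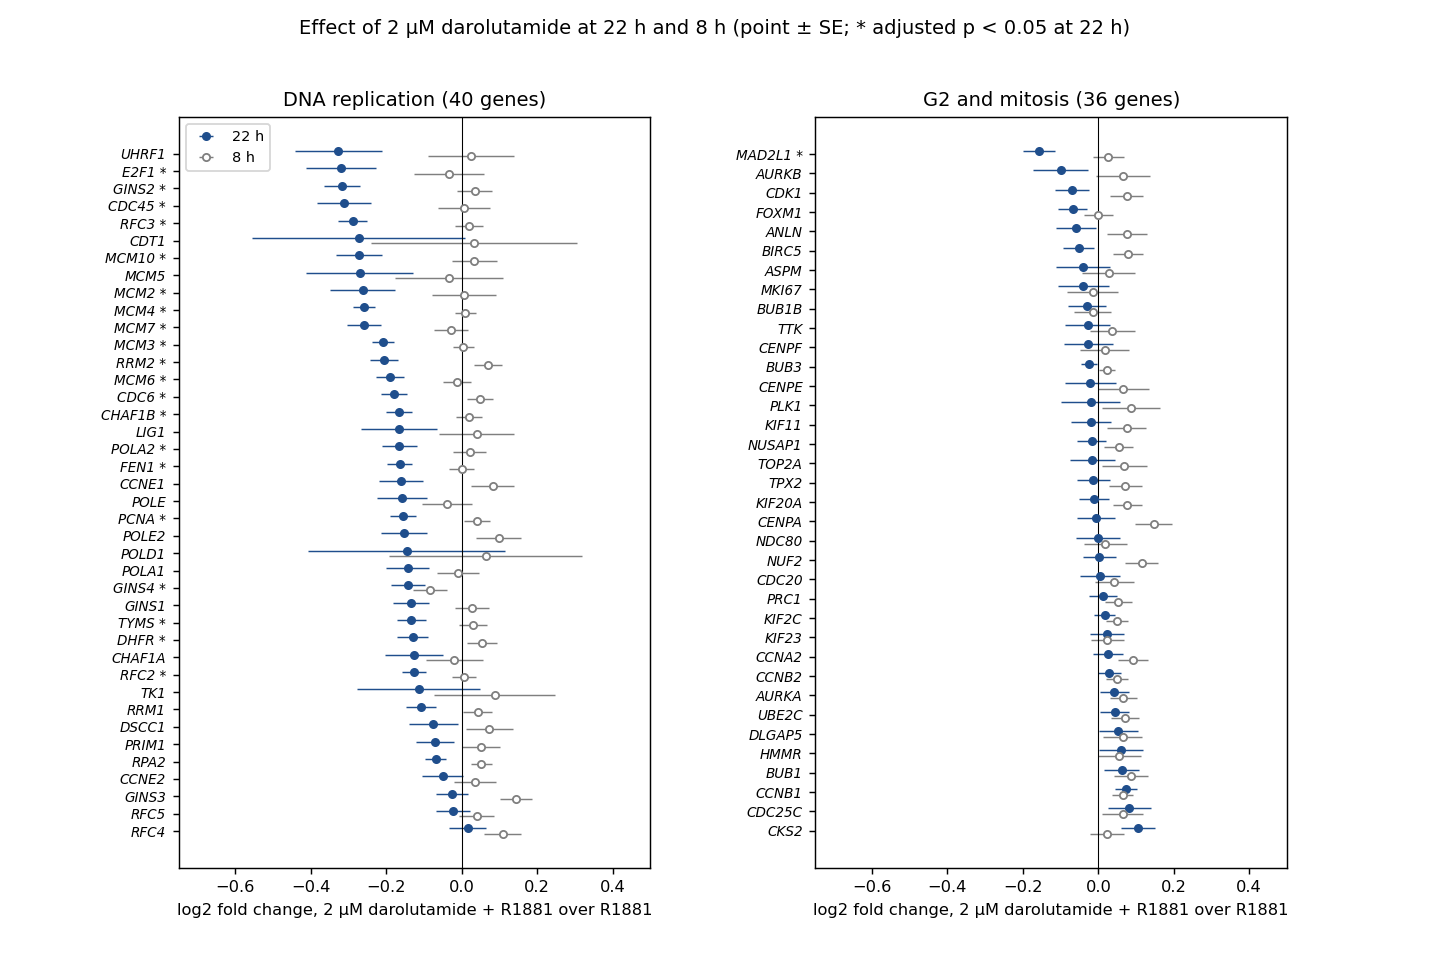
Log2 fold change ± SE of 2 µM darolutamide plus R1881 over R1881 for each of 40 DNA replication genes (left) and 36 genes of G2 and mitosis (right), at 22 h (filled, from 5 and 10 libraries) and at 8 h (open, from 5 and 10 libraries). Asterisks mark the 20 replication genes and MAD2L1 with an adjusted p under 0.05 at 22 h. Of the 40 replication genes 39 lie left of 0 at 22 h, where the median is -0.16. At 8 h they lie around 0 with a median of 0.031.

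MYC, a growth-promoting transcription factor, stood at 11.1, 11.8, 11.99, 10.4 and 13.2 CPM against 18.5 to 24.5 (median 21.5) CPM, 1.83 times lower without overlap (-0.87 ± 0.080 (SE), adjusted p = 5.44e-13). Of the 24 tested genes of MYC and ribosome biogenesis 8 fell and none rose (median -0.12), and the others fell far less than MYC, such as NOP56 of the box C/D small nucleolar ribonucleoproteins (-0.22 ± 0.029 (SE), adjusted p = 4.41e-08) and the pseudouridine synthase DKC1 (-0.21 ± 0.031 (SE), adjusted p = 2.70e-07). Of 25 genes of insulin, IGF and PI3K signalling 24 were tested, and 5 fell and 3 rose (median -0.046). INPP4B, a phosphatase of phosphoinositides, stood at 19.4, 18.7, 19.6, 20.6 and 17.2 CPM against 26.8 to 32.8 (median 30.8) CPM without overlap (-0.67 ± 0.063 (SE), adjusted p = 1.29e-12), and IRS1, an adaptor of the insulin receptor, also fell (-0.54 ± 0.085 (SE), adjusted p = 2.60e-06). Of 16 ERK feedback genes 15 were tested, and 3 rose and none fell. They were the MAPK phosphatases DUSP6, at 16.5, 16.9, 15.3, 17.1 and 16.0 CPM against 10.0 to 13.8 (median 11.5) CPM (0.50 ± 0.057 (SE), adjusted p = 4.49e-10), and DUSP4 (0.12 ± 0.024 (SE), adjusted p = 1.79e-04), and PHLDA1 (0.27 ± 0.080 (SE), adjusted p = 0.0156, lost in 7 of 16 alternative fits).

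Genes of the secretory pathway had median log2 fold changes near 0, although single members fell or rose. The shares to set beside the counts are those of all tested genes, 5.47% lower and 5.00% higher. Of 39 genes of folding and degradation in the endoplasmic reticulum, all tested, 4 fell and 4 rose (median 0.017). The stress sensor ERN1 fell (-0.19 ± 0.035 (SE), adjusted p = 4.85e-05), and XBP1, the factor its RNase activates (0.13 ± 0.027 (SE), adjusted p = 4.88e-04), and the chaperone HSPA5 (0.093 ± 0.023 (SE), adjusted p = 0.00333) rose. Of 36 vesicle trafficking genes, all tested, 3 rose and none fell (median 0.023). Of 35 glycosylation genes, all tested, 5 fell and 3 rose (median -0.017), and the largest rise was that of the sialyltransferase ST3GAL1, at 241, 239, 230.5, 236 and 233 CPM against 155 to 181 (median 172) CPM without overlap (0.47 ± 0.029 (SE), adjusted p = 4.05e-19). Of 21 genes of the ATF4 stress response and serine synthesis 3 fell and 1 rose, and the arginine transporter SLC7A1 fell most, to 11.9, 13.6, 13.4, 13.7 and 15.6 CPM from 19.99 to 25.2 (median 22.9) CPM (-0.74 ± 0.058 (SE), adjusted p = 2.75e-15). Among 20 aminoacyl-tRNA synthetases 3 fell and none rose, with YARS as an example (-0.16 ± 0.028 (SE), adjusted p = 1.98e-05), and among 10 polyamine genes 1 fell and 1 rose. None of the 13 mitochondrially encoded transcripts passed the test.

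Some marker genes of cell types moved. Of 9 luminal markers, all tested, 4 fell, among them KLK3 and KRT19, a keratin of simple epithelia (-0.62 ± 0.16 (SE), adjusted p = 0.004). Of 7 basal markers 6 were tested, and KRT15 (-0.99 ± 0.097 (SE), adjusted p = 4.35e-12) and NGFR (-0.57 ± 0.19 (SE), adjusted p = 0.0413, lost in 7 of 16 alternative fits) fell while DST rose (0.25 ± 0.058 (SE), adjusted p = 0.00135), and their summed level was 235 to 244 CPM with darolutamide against 247 to 295 CPM. Of 10 neuroendocrine markers 4 were tested, with a summed level of 21.4 to 25.7 CPM against 19.3 to 23.6 CPM. Of 7 fibroblast markers 2 were tested and LUM, a proteoglycan, rose (0.92 ± 0.12 (SE), adjusted p = 1.34e-08), with a summed level of 3.80 to 5.39 CPM against 2.11 to 3.23 CPM and at most 1 read of COL3A1 in any library. The only tested marker of endothelium, KDR, did not pass the test (0.55 ± 0.39 (SE), adjusted p = 0.486), and no leukocyte marker had enough reads to be tested. The part of other cell types in the results was not tested, and fewer cells of a type and less RNA per cell cannot be told apart in these bulk libraries.

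**Figure D5:**
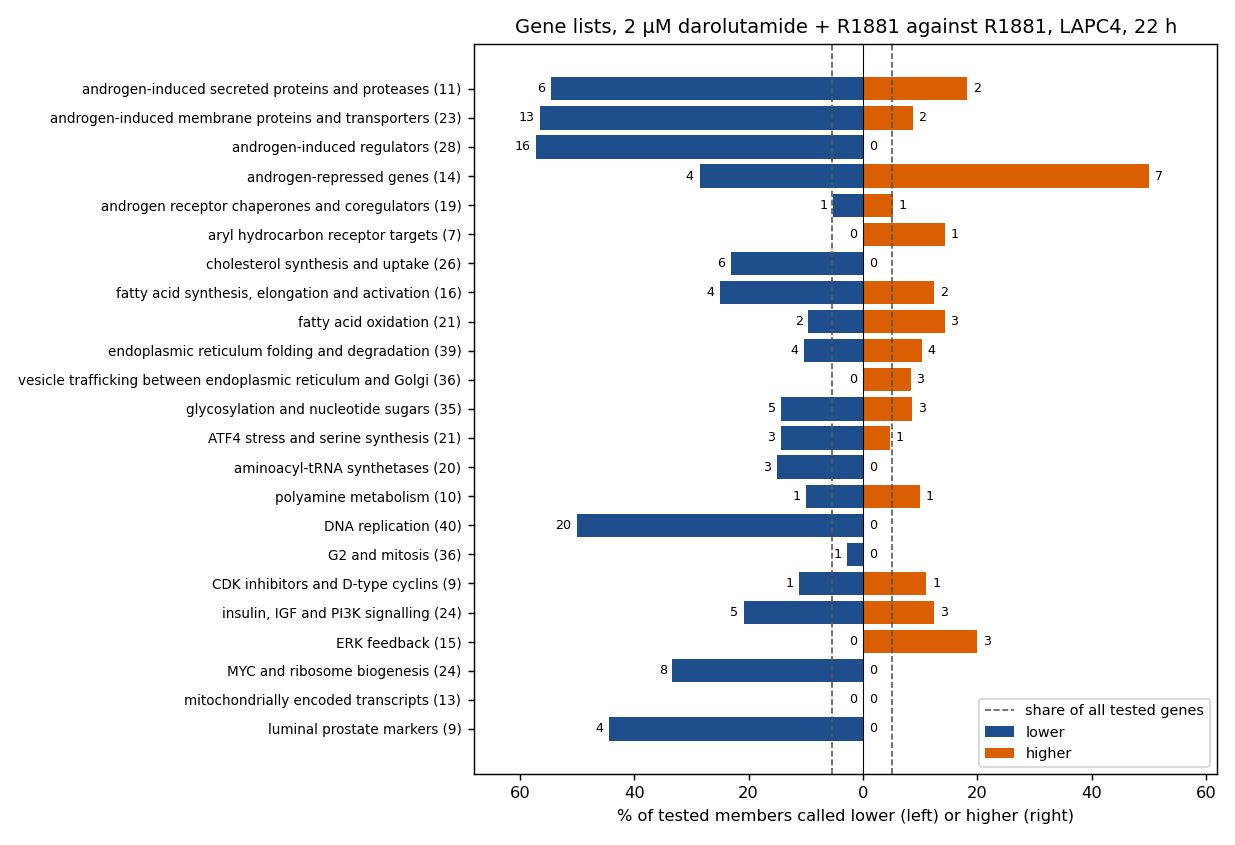
Percentage of the tested members of each gene list that were lower (blue, left) or higher (orange, right) with 2 µM darolutamide at 22 h, with the number of genes at the end of each bar and the number tested in brackets. Dashed lines mark the shares among all tested genes, 5.47% lower and 5.00% higher. The 3 lists of androgen-induced genes and DNA replication have the longest bars to the left and the androgen-repressed list the longest to the right. The lists were chosen with earlier results of these data known, so that the bar lengths are no test of them. Lists with under 7 tested members are left out.

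The comparison with DMSO asks how far cells with R1881 and darolutamide lay from cells without androgen. Against DMSO only 3 of 18204 genes passed the test (0.0165%), 1 higher and 2 lower, and 1064 had an unadjusted p under 0.05 (5.84%), of which 609 were higher and 455 lower. For KLK3 the DMSO libraries stood at 12.7 to 16.0 (median 14.5) CPM and the difference from DMSO was 0.089 ± 0.094 (SE), adjusted p = 1 with a 95% interval of -0.10 to 0.27. For FKBP5 the interval was -0.069 to 0.10 and for HOMER2 -0.086 to 0.084, on the log2 scale.

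The 3 genes that differed from DMSO were SLC30A10, RILPL2 and LRRC31. SLC30A10, a manganese and zinc exporter of low level named after its values were seen, stood at 1.38, 1.22, 1.10, 1.10 and 0.951 CPM with darolutamide, at 2.05 to 2.45 (median 2.31) CPM with DMSO and at 0.604 to 1.20 (median 0.893) CPM with R1881, so that the darolutamide libraries lay below all DMSO libraries and overlapped the R1881 libraries (-0.99 ± 0.15 (SE), adjusted p = 3.29e-04 against DMSO). LRRC31, a leucine-rich repeat protein, lay above all R1881 libraries, with 1 of 5 darolutamide libraries inside the DMSO range, at 33.9, 32.7, 34.0, 36.3 and 30.6 CPM against 35.7 to 42.6 (median 39.8) CPM with DMSO and 20.8 to 25.5 (median 22.6) CPM with R1881 (-0.24 ± 0.048 (SE), adjusted p = 0.044 against DMSO). RILPL2, a protein of ciliary transport, stood above both references, with 142, 135, 138, 135 and 149 CPM against 105 to 128 (median 115.5) CPM with DMSO and 97.9 to 115 (median 108) CPM with R1881 (0.26 ± 0.047 (SE), adjusted p = 0.0081 against DMSO). This count depends on the samples and the model. It was 90 with DMSO and R1881 replicates 1 to 5 only, 76 with the GC slope as a covariate, 862 with both, and 1 with control replicates 6 and above. LRRC31 lost its call in 10 of 16 alternative fits, RILPL2 in 4 and SLC30A10 in 1.

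Few genes differed between the doses. Against 500 nM darolutamide, 39 genes were lower (0.214%) and 8 higher (0.0439%) at 2 µM, at 22 h with R1881 in both groups and 5 libraries each. C1orf116 stood at 273, 274, 281, 277 and 285 CPM at 500 nM, between the R1881 and the 2 µM libraries (-0.69 ± 0.033 (SE), adjusted p = 2.96e-23 between the doses). ARHGEF26 stood at 79.5, 91.4, 78.6, 85.4 and 80.3 CPM at 500 nM (-0.39 ± 0.035 (SE), adjusted p = 1.61e-11), ENDOD1 at 82.2, 90.2, 84.5, 89.4 and 82.7 CPM (-0.41 ± 0.051 (SE), adjusted p = 4.17e-07) and TBC1D1, a Rab GTPase-activating protein, at 75.9, 80.2, 82.1, 81.2 and 77.5 CPM (-0.23 ± 0.035 (SE), adjusted p = 3.15e-05). In none of these 4 genes did the libraries of both doses overlap. These genes were named for small p-values between the doses. How many of all tested genes did not overlap between the doses was not counted. FN1, the matrix protein fibronectin, differed in its pattern, with 492.9, 532, 501, 538 and 496 CPM at 500 nM, 377, 384, 376, 411 and 364 CPM at 2 µM and 497 to 587 (median 517) CPM with R1881. The difference between the doses was -0.42 ± 0.049 (SE), adjusted p = 5.56e-08, and that between 500 nM and R1881 was -0.043 ± 0.042 (SE), adjusted p = 0.782.

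FKBP5 stood at 142, 157, 150.1, 152 and 151 CPM at 500 nM (-0.26 ± 0.046 (SE), adjusted p = 8.74e-04 between the doses). For KLK3 the difference between the doses was -0.30 ± 0.10 (SE), adjusted p = 0.474 with a 95% interval of -0.50 to -0.10, so that it did not pass the test while the interval lies below 0. Among the rises, CA10 stood at 18.5, 18.8, 18.0, 19.6 and 18.2 CPM at 500 nM, below all 2 µM libraries (0.38 ± 0.071 (SE), adjusted p = 0.00175), and ANXA1 at 13.4, 13.4, 11.8, 12.9 and 12.9 CPM, again below them (0.43 ± 0.070 (SE), adjusted p = 1.85e-04). The number of genes that differed was 181 with the GC slope as a covariate and 11 when only these 10 libraries were fitted.

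At 8 h the same dose had 196 genes lower (1.08%) and 85 higher (0.467%) than R1881 at 8 h. Of the 63 genes past -1 at 22 h, 31 were also lower than R1881 at 8 h, and of the 22 past 1, 3 were also higher. The effect of darolutamide itself differed between the time points for 323 genes (interaction contrast in the same fit), with 203 lower (1.12%) and 120 higher (0.659%) at 22 h than at 8 h. The smallest p was that of HOMER2, with a log2 fold change of -1.28 ± 0.042 at 22 h and -0.50 ± 0.040 at 8 h (-0.78 ± 0.056 (SE), adjusted p = 6.31e-15 for the difference). PMEPA1 (-1.03 and -0.40), FKBP5 (-1.35 and -0.62), ENDOD1 (-1.30 and -0.68) and the long non-coding RNA LINC01443 (-1.06 and -0.50) were also lower than R1881 at both times. For these genes the level with R1881 was higher at 22 h than at 8 h, while that with darolutamide differed less between the times. HOMER2 stood at 31.1 ± 2.08 CPM (mean ± SD, n = 10) with R1881 at 8 h and 50.3 ± 2.13 CPM at 22 h, and with darolutamide (n = 5) at 22.0 ± 1.06 and 20.7 ± 1.34 CPM. ENDOD1 stood at 103 ± 4.05 and 159 ± 8.02 CPM with R1881 and at 64.1 ± 5.65 and 64.5 ± 4.27 CPM with darolutamide. FKBP5 stood at 220.2 ± 7.45 and 320.0 ± 10.9 CPM with R1881 and at 144 ± 9.84 and 126 ± 10.7 CPM with darolutamide. The change over time within a treatment was not tested. C1orf116 was higher at 22 h in both groups, with 345 ± 12.3 and 518 ± 13.2 CPM with R1881 and 149 ± 2.13 and 172 ± 2.50 CPM with darolutamide, and its log2 fold change at 8 h was -1.21 ± 0.030 (-0.38 ± 0.040 (SE), adjusted p = 1.59e-09 for the difference), whereas CA10 did not pass the test at 8 h (0.15 ± 0.062 (SE), adjusted p = 0.413; 0.61 ± 0.088 (SE), adjusted p = 4.65e-06 for the difference).

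The listed genes were also counted at 8 h. Over all tested genes, 1.08% were lower and 0.467% higher than R1881 at 8 h. The effect was lower at 22 h than at 8 h for 1.12% of them. None of the 40 replication genes passed the test at 8 h, where their median log2 fold change was 0.031, against 0.013 over all genes, and for 11 of them the effect was lower at 22 h than at 8 h by the test of the difference. MCM4 had a log2 fold change of 0.0092 ± 0.028 at 8 h (-0.27 ± 0.040 (SE), adjusted p = 8.08e-06 for the difference), and here the darolutamide level was the one that differed more between the times, at 212 ± 6.78 CPM (mean ± SD) at 8 h and 170.3 ± 3.39 CPM at 22 h against 211 ± 5.56 and 204 ± 6.85 CPM with R1881. The differences of RFC3 (-0.31 ± 0.053 (SE), adjusted p = 1.08e-04) and MCM3 (-0.21 ± 0.039 (SE), adjusted p = 3.55e-04) were of similar size. Of the androgen-induced lists, 4 of 11 secreted proteins and proteases, 8 of 23 membrane proteins and transporters and 9 of 28 regulators were lower at 8 h. In the first list 1 gene, ACPP, was higher at 8 h (0.23 ± 0.051 (SE), adjusted p = 0.00355). In the second 1 gene, STEAP4, was higher (0.43 ± 0.066 (SE), adjusted p = 1.05e-05), and in the third none. Of the 24 genes of MYC and ribosome biogenesis 1, MYC, was lower at 8 h (-0.41 ± 0.079 (SE), adjusted p = 4.92e-04). Of the 7 tested aryl hydrocarbon receptor targets 3 were higher at 8 h and none lower. They were CYP1A1, named after its values were seen (0.52 ± 0.081 (SE), adjusted p = 7.46e-06), CYP1B1 (0.31 ± 0.055 (SE), adjusted p = 1.08e-04) and TIPARP (0.19 ± 0.049 (SE), adjusted p = 0.0173). For CYP1B1 the effect was lower at 22 h than at 8 h (-0.49, adjusted p = 8.20e-05 for the difference). Upper-quartile scaling moved the 323 differences between the time points to 139 lower and 128 higher.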

How the data were processed

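RNA was sequenced as stranded poly(A) libraries, and the deposited table holds raw counts per gene for 112 libraries. Per the labels and the study's methods, the authors demultiplexed with bcl2fastq 2.17, used STAR for alignment against GRCh38, and took reads per gene from featureCounts (Subread). The annotation, the strand setting and the rule for reads that match several places are not given in the sources used here, which leaves the counts of paralogs, of overlapping genes and of antisense genes uncertain. The study's methods name 5 biological replicates per condition, while the LAPC4 groups hold 5 to 10 libraries, all of which were used. Replicates 6 to 10 of R1881 at 22 h differed from 1 to 5 for 28 genes, and for 2325 at an unadjusted p under 0.05, where the main fit tested 18204. The labels name no batch, and both sets were pooled in the main comparison.

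All later steps ran in R 4.3.3. A gene was kept if 4 or more LAPC4 libraries had 10 or more reads of it. The 57 LAPC4 libraries in 8 groups, taken from the sample titles, were scaled by TMM and fitted together with edgeR 4.0.16 (glmQLFit, glmQLFTest), which was checked on simulated counts. P-values were adjusted over all 18204 genes. Standard errors were derived from the F statistic (the absolute estimate over the root of F), and 95% intervals from them. Pairs of libraries within both compared groups differed by more than sampling noise (55 pairs, chi-square per degree of freedom of 1.72 or above), so none was merged. The depth of 12188455 to 25201678 counted reads limits what can be tested for low genes.

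Named genes are the 8 largest rises and falls above the median expression, the 3 smallest p-values per list, genes of interest to the study (ERG, FOXA1, MED1, NCAPD3, IGF1R, PMEPA1, ACPT, ACPP, FKBP5, TMPRSS2, KLK3 and KLK2), and up to 5 per further comparison. Some genes that these rules name are not reported here. The members and lists were chosen with earlier results of these data known. Positions come from GENCODE 44. Alternatives were DESeq2 1.42.0, upper-quartile scaling, filterByExpr, no filter, only the compared groups, the GC slope of each library as a covariate, a replicate block with and without it, subsets of the control replicates and the omission of single replicates. The GC slope together with control replicates 1 to 5 was added after seeing the data.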

Additional observations from a re-analysis of the deposited data

Results flagged for a closer look

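The 2 µM effect differed between 22 h and 8 h for 323 genes by the interaction contrast (edgeR, adjusted p under 0.05). The log2 effect at 22 h minus that at 8 h was -0.78 for HOMER2, -0.63 for PMEPA1, -0.73 for FKBP5, -0.56 for LINC01443, -0.62 for ENDOD1, -0.38 for C1orf116 and 0.61 for CA10. For the replication genes MCM4, MCM3 and RFC3 it was -0.27, -0.21 and -0.31.

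Among 82 of the named genes, 6 of 164 groups held a library far from the others of its group by Dixon's criterion, where chance gives about 1 in 20. With 2 µM darolutamide, replicate 4 was the lowest for PMEPA1 (35.3 CPM, next 39.97) and the highest for LINC01443 (71.9 CPM, next 66.2). With R1881, replicate 3 was the highest for HOMER2 (55.1 CPM, next 51.5), replicate 9 the lowest for CHRNA2 (16.0 CPM, next 20.3), replicate 5 the lowest for TBC1D1 (96.4 CPM, next 101), and replicate 4 the highest for KDR (0.728 CPM, next 0.393). The part of single libraries in these values was not tested.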

How the results depend on the processing

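The alternatives gave 1780 values for 107 named fold changes and differences, of which 1702 kept direction and side of the threshold, 64 lost the call, 6 gained it and 8 changed sign. The sign changes were those of differences that had not passed the test: NR3C1 against R1881 with control replicates 6 and above (0.061), FKBP5 against DMSO without replicates 2 (-0.0091) or 4 (-0.027), and HOMER2 against DMSO with control replicates 1 to 5 (0.0044), these with the GC slope (0.0029), the replicate block (0.0015) or without replicates 2 (0.031) or 5 (0.012). Without single replicates FKBP5 ranged from -0.027 to 0.040 and HOMER2 from -0.031 to 0.031. The calls lost without 1 of the 2 µM libraries were those of MSMB (0.59 without replicate 2), E2F1 (-0.24 without 4), NR3C2 (0.17 without 4), HSP90AB1 (-0.088, -0.090, -0.082 and -0.068 without 1, 2, 3 and 5), PHLDA1 (0.24 and 0.25 without 1 and 4), NGFR (-0.50, -0.60 and -0.43 without 2, 3 and 4) and CDKN2B (0.30 and 0.36 without 2 and 5) against R1881, and of RILPL2 (0.26 and 0.24 without 1 and 5) and LRRC31 (-0.24, -0.23, -0.24 and -0.21 without 1, 2, 3 and 5) against DMSO. Other settings alone ended the calls of TIPARP (2 settings), DUSP4, HSPA5, HMGCS1 and KRT19 (1 each) against R1881, of SLC30A10 (1) against DMSO, and of FKBP5, CA10 and ANXA1 (2 each) and TBC1D1 (1) between the doses.

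The number of genes that differed from R1881 was 3655 with the GC slope as a covariate, 4361 with it and control replicates 1 to 5, and 85 past an absolute log2 fold change of 1, against 1906. Without single replicates it was 1586 or more. Against DMSO it was 76 with the GC slope, 90 with control replicates 1 to 5, 862 with both, 1 with control replicates 6 and above, 1 in a fit of the compared groups only, and 1 to 3 without single replicates, against 3 (1 without replicate 1 or 5). Against 500 nM it was 181 with the GC slope, 11 in a fit of the compared groups only and 31 to 52 without single replicates, against 47 (31 without 2 µM replicate 5). Between the time points it was 908 with the GC slope, 877 with it and control replicates 1 to 5, 192 without a filter on low counts, 188 with control replicates 6 and above and 261 to 305 without single replicates, against 323. The cause was not tested.

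The groups share replicate numbers 1 to 5, which the labels do not explain. Deviations from the group means of darolutamide and R1881 libraries with the same number correlated at -0.042, 0.23, 0.012, 0.42 and 0.35 over genes. Of 5 darolutamide libraries, 2 correlated best with the R1881 library of their own number. Among replicates 1 to 5 at 22 h, number 4 had the steepest GC slope with 2 µM darolutamide, R1881 and DMSO (-7.88, -6.52 and -6.97). Number 5 had the shallowest slope in these groups (-3.15, -3.88 and -4.40). In the 500 nM group numbers 2 and 1 held these places (-6.34 and -3.12). The numbers were not taken as pairs in the main fit, and these values do not settle whether they mark pairs. With the replicate number as a block 2788, 63, 9 and 209 genes passed against R1881, DMSO, 500 nM and between the time points, and with the block and the GC slope 4715, 1081, 233 and 864.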
